A study of Mus musculus with 14 samples.

Results

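Lymphocytes that had infiltrated the graft (GIL) were compared on day 5 between allogeneic and syngeneic heterotopic heart transplants. In the syngeneic group C57BL/6 hearts were placed in C57BL/6 recipients and, per the labels, were not rejected. In the allogeneic group BALB/c hearts were placed in C57BL/6 recipients and were recorded as rejected. Donor strain and group therefore cannot be told apart. All mice were 8 to 10 weeks old. Each group had 3 arrays, and each array held RNA of 3 animals pooled at 100 ng each, 300 ng in all, so that n counts pools and p-values measure the spread between pools. The same table held 1 array of PBMC, the mononuclear cells of blood, taken from normal C57BL/6 mice and used here as a description only, and 6 of the 14 arrays of the series were transplanted hearts taken on day 7. The TaqMan rodent card measures each small RNA by real-time PCR after reverse transcription and preamplification, and reports the threshold cycle (Ct), which is lower when there is more of the RNA. An assay was counted as detected at a Ct under 35. Of the 375 microRNA assays on the card, 201 were detected on all 3 arrays of at least 1 GIL group and make up the comparison. Of these, 152 were detected on all 6 GIL arrays. Another 42 were detected on all 3 syngeneic but not all 3 allogeneic arrays, and 7 on all 3 allogeneic but not all 3 syngeneic arrays. These 49 entered through the group in which they were high, so their differences are given apart from the rest.

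MicroRNAs are short RNAs that pair with messenger RNAs, mainly through bases 2 to 8 from their 5′ end (the seed), and lower the stability and translation of those messengers. MicroRNAs that share a seed share many predicted targets. In T cells some of them are known to follow activation: miR-155 and miR-146a are induced through NF-kB, miR-182 by interleukin-2 signalling, and the cluster from miR-17 to miR-92a with proliferation. Others mark the cells of a graft, such as miR-1 and miR-133a in cardiac muscle, miR-126 in endothelium, and miR-199a and miR-214 in mesenchymal cells.

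The mature sequences that carry the main differences are shown with the seed in capitals, 5′ to 3′, as held in RefSeq for the mouse assembly GRCm38.p6. Of the 201 assays, 37 matched a RefSeq mature name exactly. For most others the card gives a bare name, which was taken as the guide arm, so that the arm is an assumption of the naming. Mature names were assigned to 73 assays, and 69 of these had a sequence in the RefSeq table. The first set shares the seed of miR-17 and holds both called and uncalled assays. The sequences of miR-17 and miR-106a differ at 1 of 23 positions, and those of miR-20a and miR-20b at 2 of 23.
miR-17: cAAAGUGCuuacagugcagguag
miR-20a: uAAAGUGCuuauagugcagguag
miR-20b: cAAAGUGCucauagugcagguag
miR-106a: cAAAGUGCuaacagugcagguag
miR-106b: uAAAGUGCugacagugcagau
miR-93: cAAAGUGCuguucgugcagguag

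The second set holds seeds shared by assays that were higher in allogeneic GIL. miR-7a and miR-7b differ at 1 of 23 positions, miR-92a and miR-25 at 3 of 21.
miR-7a: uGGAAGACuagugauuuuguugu
miR-7b: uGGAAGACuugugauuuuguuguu
miR-92a: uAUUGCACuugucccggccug
miR-25: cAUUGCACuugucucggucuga

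The third set holds close relatives that did not go together. Within each pair or trio the seed is identical, and the members differ at 1 of 22 positions (miR-29a and miR-29c), 2 of 22 (miR-130a and miR-130b, and miR-146a and miR-146b) or 1 of 22 (miR-204 and miR-211).
miR-29a: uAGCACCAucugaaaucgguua
miR-29c: uAGCACCAuuugaaaucgguua
miR-130a: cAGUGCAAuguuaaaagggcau
miR-130b: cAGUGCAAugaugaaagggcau
miR-146a: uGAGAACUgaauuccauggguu
miR-146b: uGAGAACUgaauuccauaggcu
miR-204: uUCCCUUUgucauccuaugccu
miR-211: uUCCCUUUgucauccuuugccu

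The fourth set holds the seed of miR-125, whose 3 assays were all lower in allogeneic GIL. The miR-351 assay among the 201 has a rat name (rno-miR-351), and the mouse sequence is shown. The card also holds a mouse miR-351 assay, which did not reach the 201.
miR-125a-5p: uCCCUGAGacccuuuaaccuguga
miR-125b-5p: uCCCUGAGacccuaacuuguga
miR-351: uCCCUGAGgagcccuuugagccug

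The last set holds assays with a seed of their own among the largest differences.
miR-182: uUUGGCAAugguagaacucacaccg
miR-155: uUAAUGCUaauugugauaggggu
miR-18a: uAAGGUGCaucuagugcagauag
miR-214: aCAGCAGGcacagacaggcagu
miR-127: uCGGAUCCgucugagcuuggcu
miR-379: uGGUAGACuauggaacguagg
miR-410: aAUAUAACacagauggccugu

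Levels are given on the log2 scale as the mean Ct of 137 reference microRNA assays, those detected on all 7 arrays of the table, minus the Ct of the assay. A level of 0 is thus the average of the reference, and a difference of 1 is a 2-fold change. Undetected wells stand at the limit, Ct 35. Their level is an upper bound only if the assay worked in that well, which was not tested. Each fold change given below as at least a value holds under that condition. A value after ± is the limma standard error of a difference, with n = 3 pools per group.

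Allogeneic pool 3 stood apart from the other arrays before any comparison. It detected 161 microRNA assays, against 204 to 221 on the other 5 GIL arrays, and its mean reference Ct was 28.0, against 24.1 to 25.8. On this array 65.9% of the Ct values lay within 0.1 of a whole cycle, against 27.8% to 31.9% on the other GIL arrays and 36.5% on the PBMC array. It alone missed 31 assays that the other 5 GIL arrays detected. Among these were let-7a and let-7f, whose Ct on the other 5 arrays was at most 24.5 and 24.9, and miR-151-3p, at most 26.9. Counts are therefore given with and without it, as are the called differences that its absence moved by over 1.5-fold. Run day and group cannot be told apart, because all 3 syngeneic arrays were run on 1 day and the allogeneic arrays on 2 other days.

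**Figure D1:**
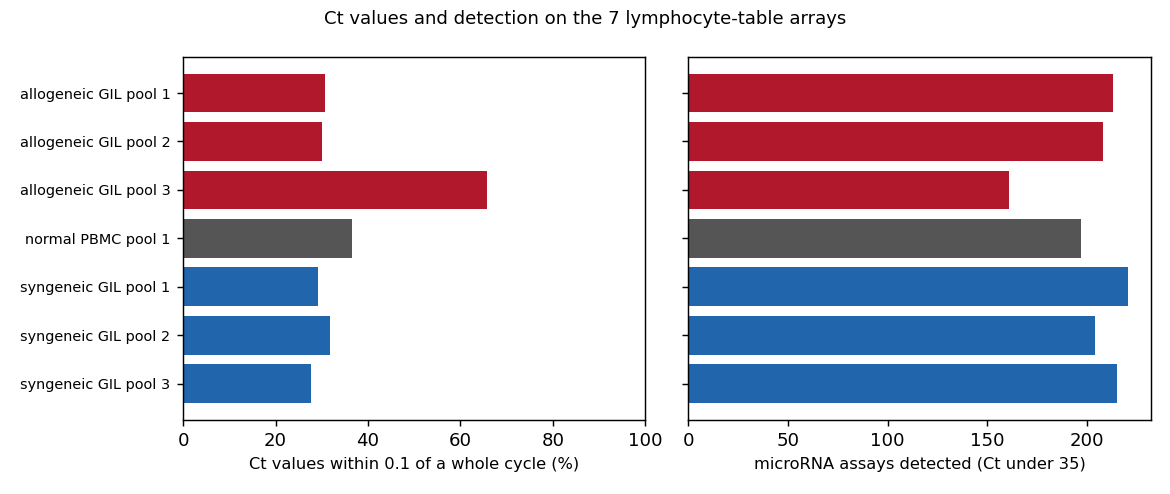
Bars give, for each of the 7 arrays of the lymphocyte table, the share of Ct values within 0.1 of a whole cycle (left, %) and the number of microRNA assays detected at a Ct under 35 (right). Allogeneic GIL pool 3 has 65.9% of its values near whole cycles and 161 assays detected, apart from the other 6 arrays.

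The cell label was checked against microRNAs that mark cell types. The leukocyte microRNA miR-142-3p stood at 4.98, 5.05 and 5.55 in allogeneic GIL, at 4.14, 3.16 and 3.49 in syngeneic GIL, and at 7.04 in PBMC. The mature lymphocyte microRNA miR-150 stood at 4.18 to 5.26 and 4.15 to 4.52 in the GIL groups and 7.27 in PBMC. So miR-142-3p and miR-150 were abundant in both groups and lay lower than in blood. The other arm, miR-142-5p, was less abundant. It stood at -2.42, -1.69 and -1.01 in allogeneic and -2.76, -2.84 and -2.51 in syngeneic GIL, against -0.05 in PBMC. The heart muscle microRNA miR-133a stood at 4.97, 6.12 and 5.16 in allogeneic and 3.53, 3.47 and 4.23 in syngeneic GIL, against -3.81 in PBMC. The smooth muscle microRNA miR-145 stood at 4.91 to 5.65 and 4.67 to 6.09, against -2.77, and the endothelial miR-126-3p at 4.37 to 5.15 and 5.70 to 6.32, against 0.08. By these assays both GIL groups carried RNA of muscle and vessel at levels far above blood. The endothelial list also holds miR-10a, which was not above blood. It stood at -0.54, -0.86 and -1.02 in allogeneic and -0.50, -1.25 and -1.13 in syngeneic GIL, against -0.81 in PBMC. Of the cardiac muscle list, miR-208, miR-208b, miR-490 and miR-499 were not among the 201 assays. Fewer cells of a type and less RNA per cell cannot be told apart in such pools.

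Allogeneic GIL held more miR-182, miR-155 and miR-146a, more of 7 of the 11 assays of the cluster from miR-17 to miR-92a and its paralogues, and more of the muscle miR-133 assays, and less of the Dlk1-Dio3 cluster, the miR-125 and miR-351 seed group, and the mesenchymal miR-199a and miR-214. Among the 152 assays detected on all 6 GIL arrays, 23 were called higher (15.1%) and 31 lower (20.4%) at a limma adjusted p under 0.05, and the median difference was 0.07. In 85 of these 152 assays (55.9%) the 2 groups did not overlap. Over all 201 assays 25 were called higher (12.4%) and 48 lower (23.9%), with a median of -0.24. Without allogeneic pool 3, 61 of these 73 calls were still made and all 73 kept their sign. Of the 54 calls on assays detected on all 6 arrays, that of miR-224 alone moved by over 1.5-fold without it (-2.78 to -1.85). The calls lost without it were 7 rises (miR-669a, miR-133b, miR-25, miR-19a, miR-92a, miR-20a and miR-27b) and 5 falls (miR-872, miR-542-5p, miR-132, miR-126-3p and miR-152). The number of calls fell to 46, 37 and 43 without syngeneic pools 1, 2 and 3, and 12 rises and 23 falls were called whichever GIL array was left out.

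The split of calls moved with the scaling. Relative to the microRNA reference, allogeneic GIL stood lower by 0.82 log2 units for MammU6, 0.89 for snoRNA202 and 0.41 for snoRNA135, and higher by 0.11 for U87 and 0.33 for Y1 (untested). Scaled to MammU6, 34 assays were called higher and 20 lower, and the median of all 201 moved up by 0.82. Scaled to snoRNA202 the split was 38 to 10 (shift 0.89), to both small nucleolar RNAs 21 to 10 (0.65), to the median of the reference assays 36 to 39 (0.22), and by quantile normalization 34 to 31 (0.30). None of the 73 calls changed sign under any of these scalings. Of the assays detected on all 6 arrays, 17 rises and 2 falls, those of rno-miR-351 and miR-214, were called under all 6 scalings.

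**Figure D2:**
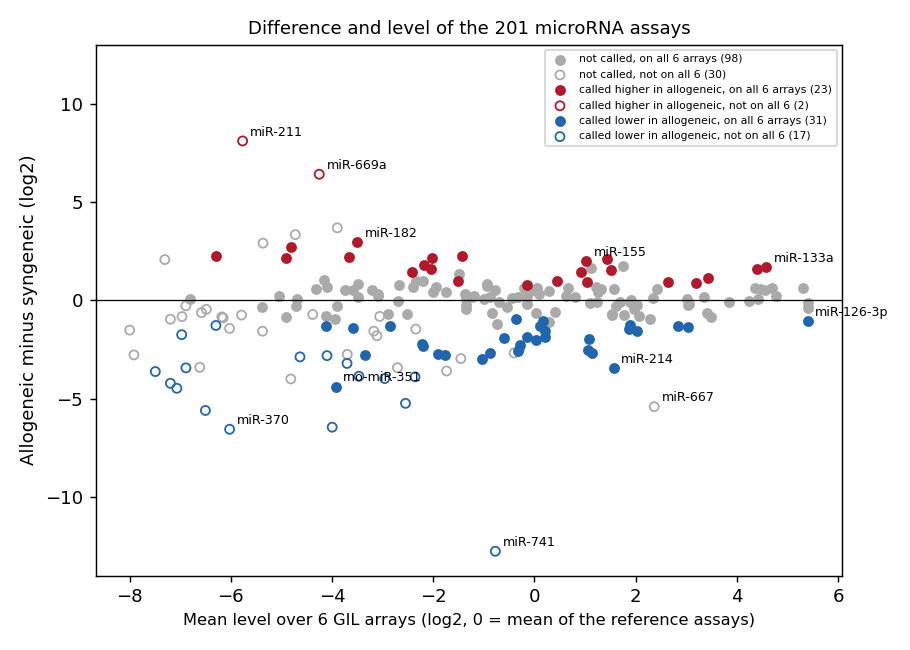
Each point is 1 of the 201 microRNA assays, with its mean level over the 6 GIL arrays (x axis, log2) and the allogeneic minus syngeneic difference (y axis, log2). Filled points were detected on all 6 arrays and open points were not. The points of miR-741, miR-211, miR-370, miR-382 and miR-669a, among the largest differences, are open.

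The largest rise among the assays detected on all 6 arrays was that of miR-182, which in activated helper T cells is known to repress Foxo1. Its level was -1.84, -2.79 and -1.45 on the allogeneic arrays, against -5.02, -5.32 and -4.58 on the syngeneic arrays and -7.61 in PBMC. The groups lay more than 1.5 log2 units apart, a difference of 2.95 ± 0.42 (7.73-fold, adjusted p = 0.00713), and of 2.66 without allogeneic pool 3. Its cluster partner miR-183 stood at -3.40, -3.90 and -3.99 against -4.48, -4.43 and -4.37, a difference of 0.66 ± 0.24 that did not pass (adjusted p = 0.0787), with 3 of its wells marked by the software. miR-155, which activated lymphocytes and macrophages make, stood at 2.19, 1.73 and 2.12 against -0.09, -0.16 and 0.35. Its groups did not overlap, and it rose by 1.98 ± 0.26 (3.94-fold, adjusted p = 0.00713). miR-146a, which dampens NF-kB signalling, stood at 4.17, 3.86 and 3.99 against 2.76, 2.64 and 3.16 and rose by 1.16 ± 0.24 (adjusted p = 0.0158), a call lost without syngeneic pool 1 or 2. miR-146b, with the same seed, overlapped between groups (1.94, 1.62 and 1.97 against 2.43, 1.29 and 2.07). Of the 9 assays of the activated T cell list, all detected on all 6 arrays, 3 rose and 3 fell, with a median of 0.62. Over the 152 assays so detected the median was 0.07, with 15.1% called higher and 20.4% lower. The 3 that fell were miR-214, miR-31 and miR-132. The last stood at 1.90, 0.92 and 0.95 against 2.44 to 2.57 and lost its call under every array left out but allogeneic pool 1. miR-21, abundant in activated T cells and in fibroblasts, stood at 4.75, 5.30 and 4.99 against 4.42, 4.28 and 4.48, and its difference of 0.62 ± 0.23 did not pass (adjusted p = 0.0822).

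The cluster from miR-17 to miR-92a and its paralogues are made as 1 transcript per locus and are known to rise in proliferating lymphocytes. The 6 members of the cluster itself lie within 813 bases at chr14:115043684-115044496 in GRCm38.p6. All 11 assays of this list were detected on all 6 arrays, and 7 rose and 0 fell, with a median of 0.93 (23 of 152 assays so detected rose). Within the list miR-18a moved most: it stood at -0.22, -0.62 and -0.02 in allogeneic and -2.02, -2.93 and -2.73 in syngeneic GIL. That difference of 2.28 ± 0.33 (4.84-fold, adjusted p = 0.00713) was called under every array left out and every scaling. miR-20b, of the copy of the cluster on the X chromosome, stood at 1.52, 1.39 and 1.99 against 0.64, -0.17 and 0.11 and rose by 1.44 ± 0.31 (adjusted p = 0.018), but not without syngeneic pool 2 or 3. The other called members rose by 0.89 to 0.99, namely miR-106b, miR-25, miR-19a, miR-92a and miR-20a. miR-17, miR-19b, miR-106a and miR-93 stood at 0.64, 0.61, 0.57 and 0.23 without passing. The size of this group rested on few arrays, since the number called was 2, 4 and 3 without allogeneic pools 1, 2 and 3, and 3, 1 and 1 without syngeneic pools 1, 2 and 3. Of the 6 assays with the miR-17 seed, 3 were called, and the differences ran from 0.23 (miR-93) to 1.44 (miR-20b). Whether near-identical members cross-react in these assays was not tested.

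The 2 members of the miR-7 family, which is best known from brain and endocrine cells, rose together. miR-7b stood at -5.16, -5.32 and -5.03 against -7.44, -7.37 and -7.40, and miR-7a at -3.85, -3.97 and -3.70 against -5.98, -5.50 and -6.52. Within each group the 3 values of miR-7b lay within 0.3 log2 units of each other, and the groups were far apart. The differences were 2.23 ± 0.20 (4.70-fold, adjusted p = 0.0026) for miR-7b and 2.16 ± 0.31 (4.47-fold) for miR-7a. miR-130b stood at -1.18, -1.16 and -0.58 against -2.67, -3.21 and -3.40 and rose by 2.12 ± 0.31 (4.36-fold). Its relative miR-130a, which shares its seed and is known from vessels, stood at -1.84, -1.05 and -1.89 against -1.30, -0.86 and -1.22 (-0.46 ± 0.32, not passing). miR-29c, of the family that represses collagens, stood at -1.55, -1.53 and -2.01 against -3.17, -3.23 and -3.07 and rose by 1.46 ± 0.23 (adjusted p = 0.0077). miR-29a overlapped between groups (2.46, 2.58 and 2.12 against 2.20, 2.14 and 2.54), and miR-29b differed by 0.53 ± 0.30 without passing. The differences between such relatives were not themselves tested.

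Further rises belonged to groups with other or less known roles. miR-547 stood at -4.33, -3.02 and -3.01 against -6.47, -6.25 and -5.74 (2.70 ± 0.45, 6.50-fold). miR-685 stood at 2.42, 2.51 and 2.58 against 0.04, 0.74 and 0.35 (2.12 ± 0.26, 4.36-fold, adjusted p = 0.00548). Neither overlapped between groups, and both were called under all scalings and all arrays left out. miR-467a and miR-467c, from a large cluster in an intron of the Sfmbt2 gene, rose by 2.19 ± 0.33 and 1.58 ± 0.44, the second lost without any array but allogeneic pool 3. miR-467a stood at -2.08, -2.63 and -3.01 against -4.39, -4.93 and -4.96. miR-124, best known from neurons, stood at -1.46, -1.33 and -1.03 against -3.51, -2.51 and -3.20 and rose by 1.80 ± 0.33 (adjusted p = 0.0102). The leukocyte miR-142-3p, whose values are given above, rose by 1.60 ± 0.34 (3.02-fold, adjusted p = 0.0168), a call lost without syngeneic pool 2 or 3. Its groups did not overlap.

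The muscle assays moved beside these. miR-133a rose by 1.67 ± 0.40 (3.19-fold, adjusted p = 0.0247) and miR-133b by 1.54 ± 0.47 (adjusted p = 0.0478), and the 2 assays of miR-1 stood at 1.66 ± 0.61 and 1.73 ± 0.64 without passing. miR-1 varied most among the allogeneic pools, at 0.64, 3.04 and 2.16, against 0.26 to 0.30 in syngeneic GIL. The call of miR-133a was lost without syngeneic pool 1 or 2, and that of miR-133b without any array but allogeneic pool 1. Of the 4 cardiac muscle assays 2 were thus called, against 4 without allogeneic pool 1, 1 without allogeneic pool 2 or 3 or syngeneic pool 3, and 0 without syngeneic pool 1 or 2. The mean level of the 4 cardiac muscle assays ran from 2.13 to 4.01 in allogeneic and from 1.26 to 1.71 in syngeneic GIL, against -7.40 in PBMC. Over the 2 leukocyte miR-142 assays the same means ran from 1.28 to 2.27, from 0.16 to 0.69, and 3.49. So 1 of the 2 leukocyte and 2 of the 4 cardiac muscle assays passed, and 0 of the 4 did when scaled to both small nucleolar RNAs. The part of either cell type in the other differences was not tested.

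**Figure D3:**
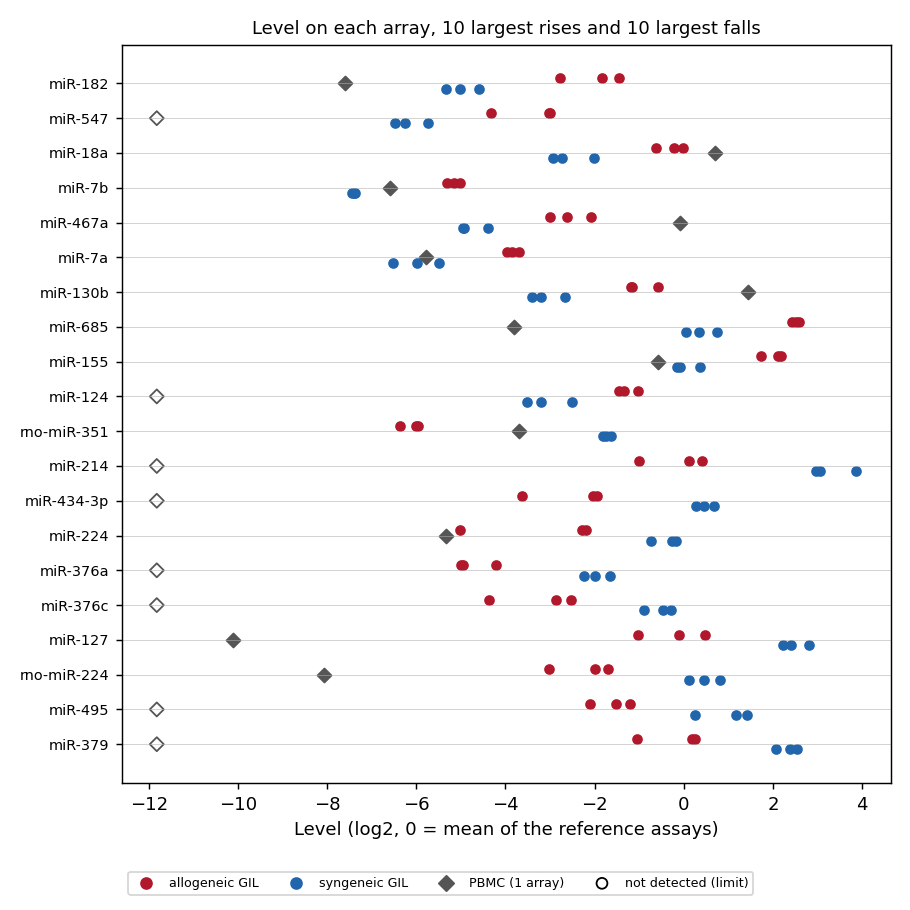
Levels (log2, 0 is the mean of the 137 reference assays) of the 10 largest rises and 10 largest falls among assays detected on all 6 GIL arrays with groups that did not overlap, 1 point per array. Red points are allogeneic GIL, blue points syngeneic GIL and grey diamonds PBMC, with open symbols at the detection limit; the allogeneic points of miR-182 (-2.79 to -1.45) all lie to the right of its syngeneic points (-5.32 to -4.58).

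The largest fall among the assays detected on all 6 arrays was that of rno-miR-351, from a cluster of small RNAs on the X chromosome that also holds miR-322 and miR-503. It stood at -6.37, -5.97 and -6.01 in allogeneic against -1.63, -1.75 and -1.80 in syngeneic GIL. Values within each group lay within 0.5 log2 units, and the difference was -4.39 ± 0.22 (20.9-fold lower, adjusted p = 2.27e-04), between -4.39 and -3.50 under the 6 scalings. These values come from the rat assay alone. The mouse miR-351 assay was detected in syngeneic pools 1 and 3, at -2.39 and -3.00, but not in syngeneic pool 2, in any allogeneic pool or in PBMC, and was not tested. The mature miR-351, miR-503 and miR-322 lie within 1013 bases at chrX:53053315-53054327 on the minus strand. miR-503 was detected on 0 of 3 allogeneic arrays and at -4.57, -5.01 and -4.91 in syngeneic GIL, so it was at least 22.3-fold lower (adjusted p = 0.0189), a call lost without allogeneic pool 2 or any syngeneic pool. miR-322 stood at -1.33, -0.61 and -2.04 against -0.24, -0.18 and -0.01, a difference of -1.18 ± 0.39 that did not pass (adjusted p = 0.061). miR-450a-5p and miR-542-5p of the same cluster fell by 1.40 and 1.28, while the rat assay of miR-450a stood at -3.41 ± 1.12 without passing. So 4 of the 7 assays were lower and 0 higher, against 48 of all 201 lower (23.9%). Of the 3 detected on all 6 arrays 2 were lower, against 31 of all 152 so detected (20.4%). The other calls, of miR-503 and miR-542-5p, were on assays that entered through syngeneic GIL, where they were high. The count of falls over the 7 was 5 without allogeneic pool 3 and 2 without any 1 syngeneic pool. It was also 2 when scaled to MammU6, to snoRNA202 or to both small nucleolar RNAs. The call of miR-542-5p was lost without any array but allogeneic pool 2.

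The other carriers of the seed of miR-125, a family that restrains differentiation in blood stem cells and is also made in heart and vessel, fell as well. miR-125a-5p stood at -0.70, -0.95 and -1.62 against 0.64, 0.83 and 0.88 and fell by 1.87 ± 0.30 (adjusted p = 0.0077). miR-125b-5p stood at 1.86, 2.66 and 2.00 against 3.27, 3.75 and 3.47 and fell by 1.32 ± 0.30 (adjusted p = 0.0215), a call lost without allogeneic pool 1 or syngeneic pool 2 or 3. miR-99b, which shares a transcript with miR-125a, fell by 1.55 ± 0.29 (lost without syngeneic pool 2), while miR-99a and miR-100 stood at -0.73 and -0.75 without passing. Altogether 4 of the 7 assays of the miR-125 and miR-99 list fell and 0 rose, with a median of -1.32. Among the 4 was miR-125b-3p, detected on 0 of 3 allogeneic arrays. Of the 6 assays detected on all 6 arrays 3 fell, against 31 of all 152 so detected (20.4%). The count over the 7 was 2 without allogeneic pool 1 or syngeneic pool 3 and 1 without syngeneic pool 2. It dropped to 1, that of miR-125b-3p, when scaled to MammU6 or to snoRNA202, with the median still below 0 at -0.50 and -0.43. miR-125a-5p and miR-125b-5p were each called under 3 of the 6 scalings.

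The mesenchymal assays, those of miR-214 and of both arms of miR-199a, which fibroblasts and pericytes make, fell in 3 of 3 cases. miR-214 stood at 0.12, 0.41 and -1.00 in allogeneic and 3.06, 3.85 and 2.96 in syngeneic GIL, and was undetected in PBMC. It fell by 3.45 ± 0.46 (10.9-fold lower, adjusted p = 0.00713), and by 3.02 without allogeneic pool 3. The miR-199a arms, made with miR-214 from an antisense transcript of the Dnm3 gene, fell by 1.38 ± 0.37 and 1.31 ± 0.29, and 1 of the 3 calls was left when scaled to MammU6. Both miR-199a calls were also lost without allogeneic pool 1 or any syngeneic pool. Over the 3 assays there was a mean level between -1.01 and 0.06 on the allogeneic arrays and between 1.48 and 1.83 on the syngeneic ones, against -9.50 in PBMC.

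MicroRNAs of the Dlk1-Dio3 region, an imprinted domain whose microRNAs come from the maternal copy, made up the largest group of falls. The card held 49 assays for this region, of which 27 are among the 201 (miR-381 with a mouse and a rat assay) and 19 were undetected on all 6 GIL arrays. The 16 of these 27 with a matched sequence span 157967 bases at chr12:109585818-109743784 on the plus strand, from miR-337-5p to miR-410. Of the 11 detected on all 6 arrays 10 fell and 0 rose, with a median of -2.54, against 31 falls and a median of 0.07 among all 152. miR-434-3p stood at -1.95, -2.04 and -3.63 against 0.46, 0.27 and 0.68 (-3.01 ± 0.50, adjusted p = 0.0077). miR-376a stood at -4.96, -4.21 and -5.00 against -2.25, -2.00 and -1.66 (-2.76 ± 0.32). miR-127 stood at 0.48, -0.11 and -1.02 against 2.22, 2.81 and 2.40 (-2.69 ± 0.43). In these 3 and in the other 7 called, the lowest syngeneic value lay above the highest allogeneic value. miR-379 stood at 0.25, 0.18 and -1.05 against 2.07, 2.54 and 2.38 (-2.54 ± 0.41), and miR-410, at the far end of the region, at -3.20, -3.22 and -3.70 against -1.32, -0.90 and -0.88 (-2.34 ± 0.26, adjusted p = 0.00548). miR-376c (-2.71), miR-495 (-2.56), miR-337-5p (-2.25), miR-411 (-1.97) and miR-494 (-1.89) also fell. The exception was miR-376b, at -2.37, -1.49 and 1.35 against -2.42, -2.10 and -1.96, a difference of 1.32 ± 0.95 that came to 0.23 without allogeneic pool 3.

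Over all 27 assays of the region 20 were called lower and 0 higher, with a median of -2.71. Of all 201 assays 48 were called lower (23.9%). The 20 include the 10 detected on all 6 arrays. The rest entered through syngeneic GIL, where they were high, and that choice alone favours a fall. The count of falls over the 27 was 21 without allogeneic pool 3 (median -2.29), 17 and 14 without allogeneic pools 1 and 2, and 14, 11 and 15 without syngeneic pools 1, 2 and 3. It depended more on the scaling: 10 falls were called when scaled to MammU6 (median -1.89), 3 to snoRNA202 (-1.82), 3 to both small nucleolar RNAs (-2.06), 18 to the reference median (-2.49) and 15 by quantiles (-2.17). The 3 called under all 6 scalings were miR-370, miR-382 and miR-409-3p, each undetected on at least 1 allogeneic array. The mean level of the 27 assays, with undetected wells at the limit, ran from -4.88 to -4.34 in allogeneic and from -2.08 to -1.36 in syngeneic GIL. In PBMC 18 of the 27 were undetected. These falls stood beside the falls of the mesenchymal assays and the rises of the cardiac muscle assays given above, and the part of either cell type in them was not tested.

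**Figure D4:**
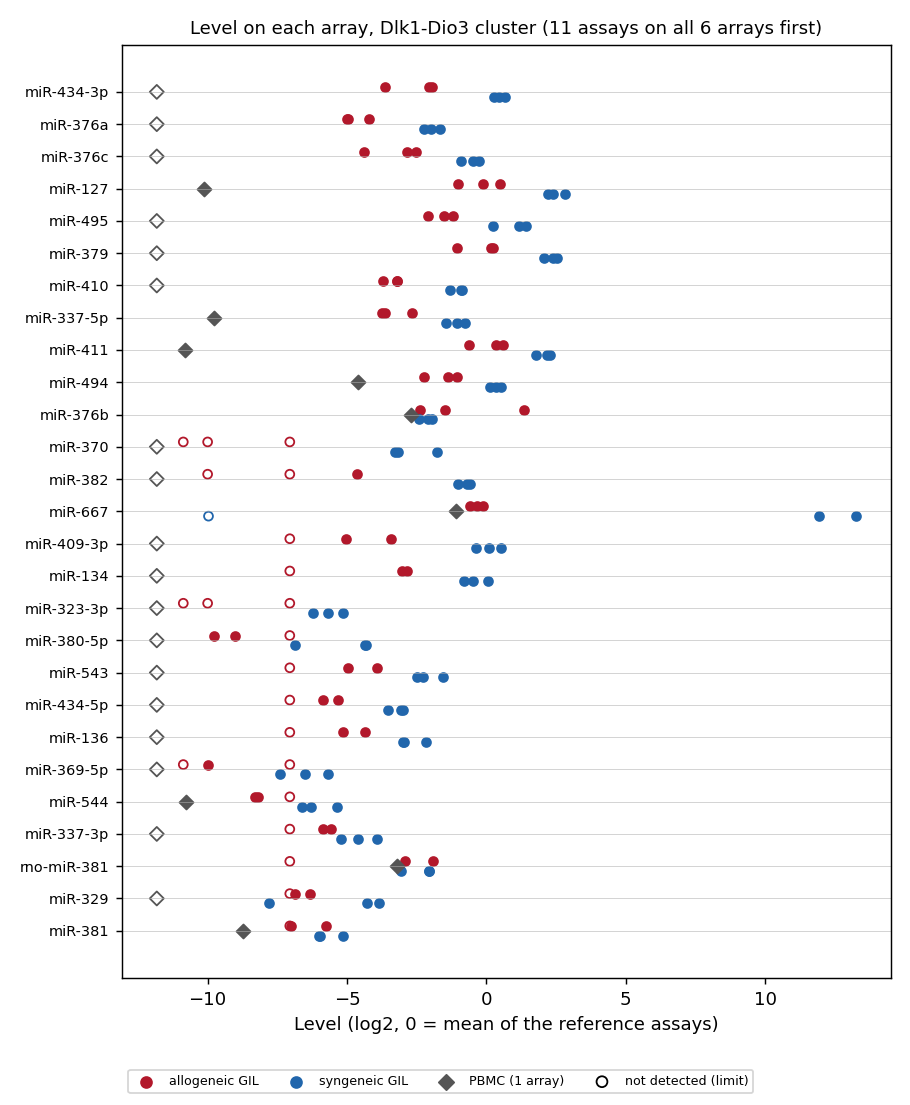
Levels (log2) of the 27 assays of the Dlk1-Dio3 region on each array, the 11 detected on all 6 GIL arrays first, each block in order of the difference. Red points are allogeneic GIL, blue points syngeneic GIL and grey diamonds PBMC, with open symbols at the detection limit; in 10 of the first 11 rows the blue points lie to the right of the red points, and miR-376b is the exception.

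Other falls concerned single microRNAs. miR-224 had a mouse and a rat assay, at -2.78 ± 0.81 and -2.69 ± 0.42. The mouse assay gave -2.28, -2.19 and -5.03 against -0.73, -0.17 and -0.26, and its difference was -1.85 without allogeneic pool 3. Its call was lost without allogeneic pool 1 or any syngeneic pool, while that of the rat assay was kept whichever array was left out. miR-34b-3p, of a family that p53 induces, stood at -1.20, -1.35 and -1.68 against 0.52, 0.86 and 1.18 (-2.26 ± 0.27, adjusted p = 0.00548). miR-31, which is known to lower Foxp3 in T cells, stood at -0.42, -1.51 and -1.02 against 0.70, 1.22 and 1.22 (-2.03 ± 0.35). Both had groups that did not overlap. miR-193b (-1.86), miR-218 (-1.54) and miR-574-3p (-1.46) fell and kept their calls under every array left out. The endothelial miR-126-3p fell by 1.07 ± 0.32 (adjusted p = 0.0478), a call lost under every array left out, and miR-126-5p stood at -0.24 ± 0.32.

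Of the 49 assays not detected on all 6 arrays, 17 were called lower and 2 higher, and the detection limit bears on each value. miR-370, miR-672, miR-503, miR-125b-3p and miR-323-3p were seen on every syngeneic array and on 0 of 3 allogeneic arrays. Their allogeneic values are the limits of the 3 arrays, -10.87, -10.00 and -7.05. If the assays worked in those wells, the differences are lower bounds. Their errors hold no spread of the microRNA in allogeneic GIL. miR-370 stood at -3.18, -3.27 and -1.77 in syngeneic GIL and was at least 94.5-fold lower in allogeneic GIL (adjusted p = 0.0077). miR-672 stood at -4.06, -3.10 and -3.94 and was at least 48.7-fold lower (adjusted p = 0.00985). miR-125b-3p and miR-323-3p were at least 18.7-fold and 12.4-fold lower, calls that were kept only when the array left out was allogeneic pool 3. In the other direction miR-211 stood at -2.27, -1.87 and -1.01 in allogeneic GIL, with no detection in any syngeneic pool. The rise was at least 275-fold, but the software had marked 3 of its 4 wells with a Ct. Its relative miR-204, which differs at 1 position, stood at -0.21, 0.36 and -1.01 against 0.08, 0.27 and 0.70. miR-669a stood at -0.96, -1.17 and -1.02 in allogeneic GIL and was detected on 1 of 3 syngeneic arrays, at -3.18 (difference 6.41 ± 1.79, adjusted p = 0.0404), a call kept without syngeneic pool 1 alone. miR-741 (4 of 4 wells with a Ct marked) and miR-667 (5 of 6) gave differences of -12.76 and -5.41, the second with an error of 6.24. Leaving out 1 array moved many of these 19 differences by over 1.5-fold. Without allogeneic pool 3 the differences of miR-370, miR-672, miR-503, miR-125b-3p and miR-323-3p came to -7.69, -6.73, -5.60, -5.35 and -4.75, and without allogeneic pool 1 to -5.78, -4.82, -3.69, -3.44 and -2.84, since the limit differs between arrays. Without allogeneic pool 3 miR-134 moved from -3.90 to -2.53, miR-409-3p from -5.24 to -4.30, miR-455 from -3.98 to -2.93 and miR-335-3p from -3.87 to -3.04. In the same way miR-543 moved from -3.21 to -2.34, miR-136 from -2.82 to -2.05 and miR-380-5p from -3.44 to -4.22. miR-382, at -6.46, came to -7.75 and -5.07 without allogeneic pools 1 and 2, and miR-669a to 8.54, 5.52 and 5.15 without syngeneic pools 1, 2 and 3. Without allogeneic pool 1, miR-134, miR-335-3p, miR-409-3p, miR-455 and miR-543 came to -4.63, -4.46, -6.12, -4.64 and -3.91. miR-134 came to -4.53 without allogeneic pool 2, and miR-380-5p to -4.29 without syngeneic pool 2. miR-741 came to -10.91 and -14.57 without allogeneic pools 1 and 2 and to -12.18 without syngeneic pool 1. All of these kept their direction. The 31 assays missed on allogeneic pool 3 alone included 10 of the 17 falls. Among the rest of the 31, let-7a moved from -2.68 to -0.03 and let-7f from -2.47 to 0.29 when that array was left out.

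In several groups few or 0 assays passed. In the mature lymphocyte list (miR-150, miR-342-3p, miR-26a and miR-26b) 0 of 4 were called, with a median of 0.46. miR-150 stood at 5.26, 4.18 and 4.97 against 4.15, 4.20 and 4.52, and its groups overlapped. In the let-7 family 0 of 8 were called (median -0.52, and -0.01 without allogeneic pool 3). In the miR-30 family 0 of 5 were called (median 0.57), against 3 of 5 called higher when scaled to the reference median or by quantiles. miR-30e lay apart between groups, at 0.83, 1.12 and 1.01 against 0.35, 0.26 and 0.47 (0.63 ± 0.21, adjusted p = 0.061). Of the 4 assays of the myeloid list 1 was called lower, that of miR-125a-5p given above, and the median was -0.89. The myeloid miR-223 stood at 4.16, 2.39 and 2.66 against 4.95, 3.34 and 3.42 (-0.83 ± 0.66, not passing). The macrophage miR-147 stood at 0.50 ± 0.46 and miR-125a-3p at -0.95 ± 0.48, both without passing. The smooth muscle miR-143 and miR-145 (0.56 and -0.15), miR-221 and miR-222 (-0.28 and 0.09) and miR-210, which hypoxia induces (0.16), were not called either. In the miR-15/16 family miR-497 fell by 1.30 ± 0.30, a call lost without allogeneic pool 1 or any syngeneic pool, and miR-15a, miR-15b, miR-16, miR-195 and miR-322 did not pass. A difference that misses the threshold is not shown to be absent at 3 pools per group.

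**Figure D5:**
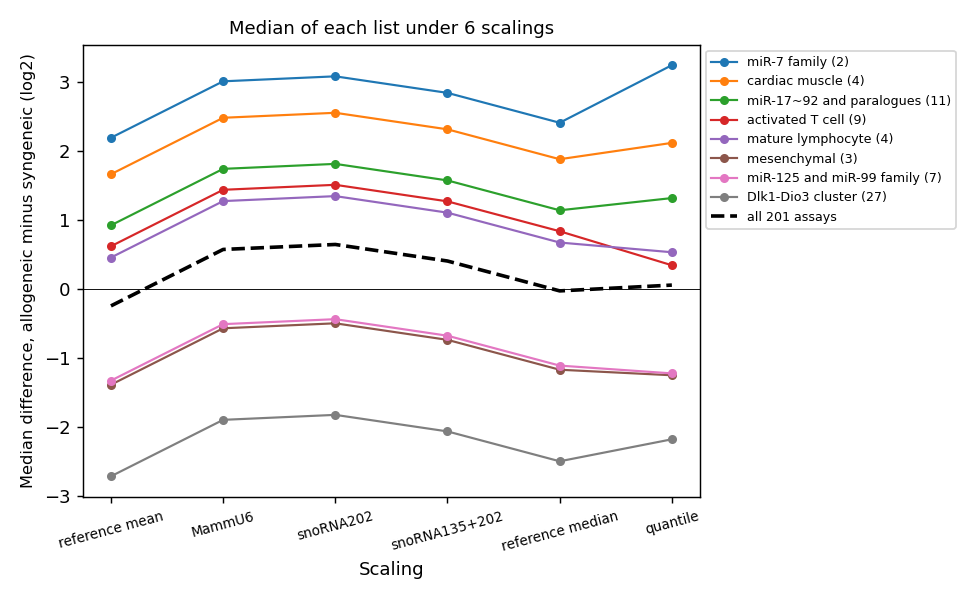
Lines give the median allogeneic minus syngeneic difference (y axis, log2) of 8 lists and of all 201 assays (dashed) under 6 scalings (x axis), with the number of assays of each list in parentheses. The medians of the Dlk1-Dio3, mesenchymal and miR-125 lists are below 0 under all 6 scalings, and that of all 201 assays moves from -0.24 to 0.65.

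The PBMC array placed the called assays on a second axis, as a description of 1 array. Of the 25 rises, 14 stood higher in PBMC than in either GIL group, among them miR-18a (0.71), miR-130b (1.43), miR-142-3p (7.04), miR-467a (-0.08) and miR-29c (-0.81). For these the allogeneic mean lay between the syngeneic mean and blood. For 5 rises, miR-182 (-7.61), miR-155 (-0.58), miR-685 (-3.80), miR-133a (-3.81) and miR-27b (-2.81), PBMC lay below both GIL groups, and miR-547, miR-124 and miR-133b were undetected there. miR-7a, miR-7b and miR-146a lay between the groups. Of the 48 falls, 20 were undetected in PBMC and 16 lay below both groups. Another 7 lay above both, and were miR-193b, miR-450a-5p, miR-672, miR-503, miR-320, miR-872 and miR-542-5p. miR-503 stood at -1.53 and miR-672 at -2.92 in PBMC, although neither was detected in allogeneic GIL. Among the 128 assays not called, 81 stood higher in PBMC than in both groups.

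Separate assays of the same microRNA or precursor were compared. They were read on the same arrays, pools and scaling, so their gaps do not measure the spread between pools. The 2 arms of a precursor are also different RNAs. Both microRNAs with a mouse and a rat assay detected on all 6 arrays, miR-1 and miR-224, gave differences within 0.10 log2 units of each other. Pairs among the 201 not so detected lay further apart, by 0.12 (miR-345-3p), 0.67 (miR-381) and 2.01 (miR-450a). For miR-450a the mouse assay was called lower at -1.40, and the rat assay, at -3.41, was not called. For miR-351, miR-207, miR-532-5p and miR-543 only 1 of the 2 assays reached the 201. The other was detected on 2 GIL arrays for miR-351, on 1 for miR-532-5p and on 0 for miR-207 and miR-543. Of 7 pairs of arms of 1 precursor detected on all 6 arrays, 6 had the same sign. The arms differed by 0.01 (miR-340) to 0.93 (miR-125a), with a median gap of 0.46. The exception was miR-331, at 0.06 and -0.32. Both arms were called for miR-199a, and 1 arm of 2 for miR-125a, miR-126 and miR-142.

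The difference between allogeneic and syngeneic transplants was last set against the same difference in whole hearts, as an interaction over the 12 transplant arrays scaled to 133 microRNAs detected on all 14 arrays. Hearts were taken on day 7 and GIL on day 5, so that tissue and day cannot be told apart here. Of the 201 assays 23 were called with a more positive (11.4%) and 36 with a more negative difference (17.9%) in GIL than in hearts. In 35 of these 59 the signs in GIL and hearts were opposite, and 16 were called under all 5 scalings tried. The 59 were chosen by the difference between GIL and hearts, which favours opposite signs. Over all 201 the signs were the same for 19 of the 25 GIL rises, 35 of the 48 GIL falls and 80 of the 128 assays not called. The split of 23 to 36 became 10 to 6 when scaled to MammU6, 21 to 7 to snoRNA202 and 20 to 8 to both small nucleolar RNAs. Fitted on the 152 assays detected on all 6 GIL arrays alone, it was 24 to 29. The cardiac muscle assays were among the 59. miR-133a stood 1.69 higher in allogeneic GIL and 1.80 lower in allogeneic hearts, an interaction of 3.50 ± 0.48 (adjusted p = 0.00134), and miR-133b and both assays of miR-1 gave interactions of 3.48, 3.35 and 3.42. All 5 miR-30 assays stood more positive in GIL, by 0.94 (miR-30b) to 1.80 (miR-30e). miR-29c stood 1.48 higher in GIL and 0.80 lower in hearts (2.27 ± 0.35, adjusted p = 0.00227).

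rno-miR-351 differed between the settings, with a heart difference of -0.35 ± 0.35 and an interaction of -4.02 ± 0.50 (adjusted p = 0.00109). In the Dlk1-Dio3 region 15 of 27 assays were more negative in GIL and 0 more positive, and the median heart difference of the 27 was -0.34. Among the 15 were miR-382, miR-409-3p, miR-134, miR-543, miR-323-3p and miR-434-5p. These entered the comparison through syngeneic GIL, where they were high, and all stood at the limit on allogeneic pool 3. That choice alone favours a more negative difference in GIL. miR-410 and miR-495 stood at 0.22 and 0.10 in hearts, with interactions of -2.54 ± 0.39 and -2.63 ± 0.48. These 2 were called under 3 and 2 of the 5 scalings. Of the rises, miR-547 was larger in GIL (heart difference 0.17, interaction 2.55 ± 0.49), while miR-685 rose more in hearts (7.22 ± 0.41) than in GIL (interaction -5.07 ± 0.58). For miR-182, miR-155, miR-7a, miR-7b, miR-130b, miR-18a, miR-467a and miR-124 the interaction did not pass, and the heart differences were 2.51, 0.97, 1.84, 1.97, 1.33, 1.14, 2.11 and 2.96. The number of interaction calls dropped from 59 to 34 and 38 without syngeneic heart pools 3 and 2, and to 39 without syngeneic GIL pool 2.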

How the data were processed

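MicroRNA levels were measured on TaqMan rodent microRNA cards in RNA pools, and the authors exported them with SDS 2.4, per the file headers. The Ct column holds the threshold cycle. The delta Ct that the authors deposited, on the log2 scale with the sign turned, subtracts snoRNA202 and served as a check. Levels were recomputed from Ct, with wells undetermined or at 35 or later set to 35, and subtracted from the mean Ct of 137 microRNAs detected on all 7 arrays of the lymphocytes and PBMC. Repeated wells were averaged. Among the heart data 1 well had a sample name matching no array and was left out. Baseline and threshold settings are not given in the sources used here. Precision is limited by the number of arrays.

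The 3 lymphocyte groups were fitted together with limma 3.58.1 (R 4.3.3, lmFit and eBayes, two-sided). Calls required an adjusted p under 0.05, by the Benjamini-Hochberg method across all 201 assays. The PBMC array, alone in its group, adds no spread. The interaction was fitted over the 12 transplant arrays. The fits were tested on simulated data. Sequences and coordinates came from RefSeq tables (GRCm38.p6).

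The members, the 32 microRNA lists and the tests were chosen with earlier results of these data known. Named assays followed a rule: the 10 largest called rises and falls detected on all 6 arrays with groups that do not overlap, up to 5 called each way detected on 0 of 3 arrays of a group, from each list the up to 4 assays of smallest p, up to 10 assays sharing a seed with these, and the 5 small RNA controls. The other assays named were chosen after their values were seen. Other scalings, detection limits and filters, a replicate block, and leaving out each array were also tried. Run day as a random block and allogeneic pool 3 left out before assays were selected were added after seeing the data.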

Additional observations from a re-analysis of the deposited data

Results flagged for a closer look

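The allogeneic minus syngeneic difference itself differed between GIL on day 5 and hearts on day 7 in 59 of 201 assays, by the limma interaction test. Among the 10 largest rises and 10 largest falls in GIL of assays detected on all 6 arrays with groups that did not overlap, the interaction (GIL minus hearts) passed for 9. These assays were chosen by their GIL differences, which also enter the interaction. Their share is therefore not comparable with the 59 of 201. The interaction also passed for other assays not detected on all 6 arrays. Among them were miR-741, miR-211, miR-382 and miR-409-3p, each with a larger difference in GIL. Every GIL well of miR-741 with a Ct was marked by the software. For miR-211 the heart difference was -3.74 ± 2.11, with syngeneic heart pool 1 at -3.12 and the other transplanted hearts at -13.60 to -12.78. The interaction was 2.55 log2 units for miR-547, which stood at 0.17 in hearts. For miR-685 it was -5.07, because the rise in hearts was larger. For rno-miR-351 it was -4.02. For 6 microRNAs of the Dlk1-Dio3 region it was -2.63 (miR-495), -2.10 (miR-127), -2.01 (miR-376c), -1.85 (miR-434-3p), -1.66 (miR-376a) and -1.58 (miR-379). All 9 are measured differences of differences, and the day of sampling differs along with the tissue.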

How the results depend on the processing

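The comparison of allogeneic with syngeneic GIL made 73 calls. Scaled to snoRNA202 it made 48, and scaled to both small nucleolar RNAs 31. Leaving out 1 array gave 37 (without syngeneic pool 2) to 70 (without allogeneic pool 3). With the replicate number as a block (replicate block) 55 calls were made, 53 of them among the 73. The numbers are not known to pair the pools, since the deviations of same-numbered pools correlated at 0.20, 0.24 and -0.16. The comparison with hearts made 59 calls, against 16 scaled to MammU6, 28 to snoRNA202, 28 to both small nucleolar RNAs, 26 with the replicate block, and 34 (without syngeneic heart pool 3) to 66 (without allogeneic GIL pool 1) with 1 array left out. The causes were not tested. Of the 50 called assays among the 104 named by the rule, 12 kept their direction and call under each of 21 alternatives. Another 4 (miR-211, miR-741, miR-370 and miR-7b) kept them under the 19 or 20 alternatives that gave a value. For miR-211 and miR-741, leaving out marked wells and requiring detection in both groups gave no value. Their calls were thus not checked in those ways. No named assay reversed under those run (0 values). Run day as a random block gave 74 calls, and leaving out allogeneic pool 3 before assays were selected gave 73 of 210. Both were chosen after seeing the data. Run day as a fixed block was not run, because no day held both groups. For the same reason the random block cannot separate run day from group. The late Ct and few detections of allogeneic pool 3 limit what could be measured for weak assays.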
